A study of Mus musculus with 31 samples.

Results

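Sorted cDC2 and CD11c-positive monocyte-derived cells from infarcted mouse hearts were compared gene by gene. All libraries of the 2 populations were taken by their titles, which gave 3 cDC2 libraries and 4 libraries of CD11c-positive monocyte-derived cells (moDCs in the labels), 7 of the 31 libraries of the series. The mice were Balb/c, 8 to 12 weeks old, and myocardial infarction (MI) was induced surgically by tying off the left anterior descending artery for good. No transgene or deletion is named for any group. The same contrast in the steady state (SS, as the labels call it) used 4 cDC2 and 4 moDC libraries, and the infarcted cDC1 and CD11c-negative macrophage libraries (4 each) gave reference levels. RNA was read as cDNA amplified from 4 ng of total RNA with SMART-Seq v4, a kit for very small inputs. The time between surgery and harvest, the sex of the animals and the antibodies of the sort are not stated in the labels. The design text calls the replicates independent without saying whether each was 1 animal or a pool. How much of the spread between them lies between animals is therefore not known. The p-values rest on that spread as estimated over the replicates of all 8 groups of the series, not of the 2 populations alone.

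cDC2 are conventional dendritic cells that grow from a committed precursor under FLT3 ligand, use the transcription factor IRF4, and are known for carrying antigen from tissue to lymph nodes and showing it on MHC class II to CD4+ T cells. Monocyte-derived cells enter injured tissue from the blood through the receptor CCR2. Some of them take on CD11c (encoded by Itgax) and MHC class II, which makes them look like dendritic cells, while others become macrophages that clear dying cells and iron-rich debris. The series is about T cell priming by dendritic cells after infarction, and this contrast asks which genes set the 2 antigen-presenting populations of the infarct apart.

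The 7 libraries were alike in depth, with 9820904 to 10364357 reads in genes, and 6.85% to 9.54% of counted entries fell in no feature. Replicates were alike (Pearson r of log2 CPM 0.962 to 0.968 within groups, 0.935 to 0.949 across them, over genes). The median coefficient of variation between replicates was 13.4% in cDC2 (7903 genes of at least 10 CPM) and 12.6% in moDCs (8001 genes). CPM is a gene's read count scaled to its library's total, and values are means ± SD with n = 3 for cDC2 and n = 4 for moDCs.

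The labels were first set against marker genes. Flt3, the receptor for the dendritic cell growth factor, was at 217, 195 and 199.8 CPM in the 3 cDC2 libraries and at 26.5, 18.9, 38.7 and 49.4 CPM in the 4 moDC libraries, so every cDC2 library lay above every moDC library (log2 difference 2.61 ± 0.27 SE, adjusted p = 7.72e-08, edgeR's quasi-likelihood test with Benjamini-Hochberg adjustment over all genes, as for every adjusted p below). Zbtb46, a transcription factor of conventional dendritic cells, followed the same order at 47.0 ± 3.26 against 9.69 ± 2.65 CPM (4.85-fold, adjusted p = 2.74e-07). Irf4 stood at 95.4 ± 13.4 against 40.1 ± 9.65 CPM (2.38-fold higher in cDC2, adjusted p = 0.00203). On the other side, Fcgr1, which encodes the high-affinity IgG receptor CD64, was at 72.5, 77.9 and 102 CPM in cDC2 and 211, 235, 245 and 260.0 CPM in moDCs, 2 ranges that did not meet (log2 -1.50, adjusted p = 0.00121). Mertk, a receptor for dying cells, was at 6.68, 1.09 and 1.25 CPM in cDC2 and 18.7, 14.1, 22.7 and 31.2 CPM in moDCs. Replicate 1 set the cDC2 mean of Mertk: the log2 difference was -2.84 (adjusted p = 9.80e-04) with it and -4.20 without it.

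Itgax, which encodes the CD11c that names the monocyte-derived population, was not higher there than in cDC2. The name sets these cells apart from the CD11c-negative macrophages, so this contrast with cDC2 does not check it. Itgax was at 851, 775 and 798 CPM in cDC2 and 438, 422, 462 and 562 CPM in moDCs, 1.72-fold higher in cDC2 (adjusted p = 0.0252). That call was lost when any 1 of moDC replicates 1, 2 or 3 or cDC2 replicates 1, 2 or 3 was left out (adjusted p from 0.0666 to 0.0945), although the libraries did not overlap. Ccr2 was high in both populations, at 2149 ± 253 CPM in cDC2 and 2828 ± 377 CPM in moDCs, and did not pass the test (log2 -0.40, adjusted p = 0.0751). It passed with a replicate block (0.0225), with only the libraries of the 2 groups (0.0234) and in DESeq2 (0.0428). Ly6c2, the Ly6C antigen of blood monocytes, had 4 reads in all 3 cDC2 libraries together and 498 in the 4 moDC libraries, which is 0, 0.0992 and 0.289 against 3.89, 13.5, 14.9 and 17.3 CPM (log2 -6.46, adjusted p = 3.05e-04). Without cDC2 replicate 3 the log2 difference was -7.69.

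**Figure D1:**
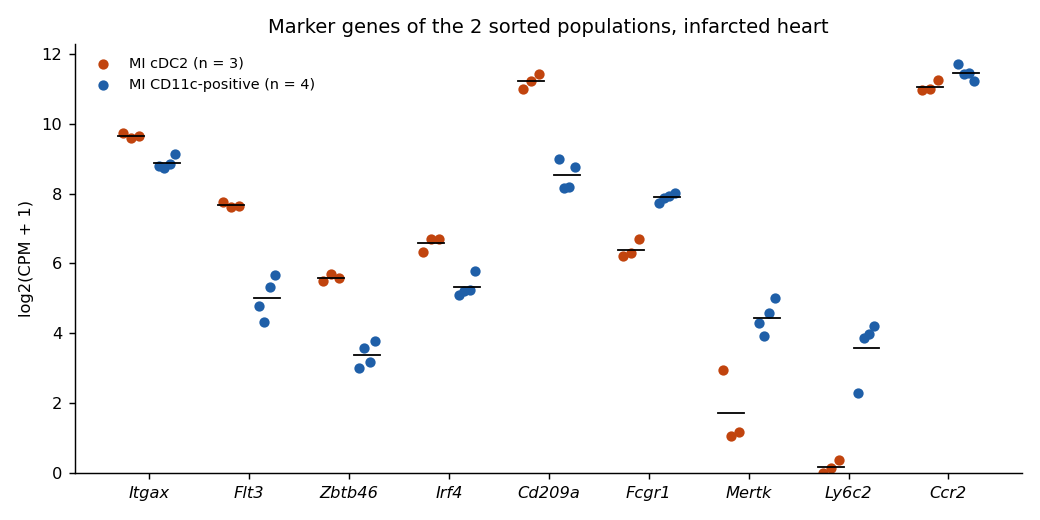
Marker genes in each library, as log2(CPM + 1) on the vertical axis, for the 3 cDC2 libraries and the 4 CD11c-positive libraries of infarcted hearts; points are libraries and black lines are means of the plotted values. The populations did not overlap for any gene shown except Ccr2, and 1 cDC2 library (6.68 CPM) stands above the other two for Mertk.

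Marker genes of other cell types were summed in each library. The summed level of 12 cDC1 markers was 1093 to 1184 CPM in cDC2 and 1056 to 1280 CPM in moDCs. The defining markers Xcr1 (2.54 to 3.77 CPM in cDC2, 995 CPM in cDC1) and Clec9a (at most 1.40 CPM in either population) were near 0. Most of both sums came from Naaa, Wdfy4, Irf8 and Cadm1. Wdfy4 was at 261 to 308 CPM in cDC2 and 108 to 136 CPM in moDCs. Irf8 was at 149 to 230 and 350 to 433 CPM. Of the 12 markers 50% were called, 4 higher in cDC2 and 2 in moDCs, against 10.1% of all genes tested. Of 11 neutrophil markers, Elane, Camp and Ngp had no read in either population, and the sum of 19.9 to 31.5 CPM in cDC2 against 116 to 128 CPM in moDCs was mostly Csf3r. T cell markers summed to 22.5 to 31.1 CPM in cDC2 and 16.7 to 25.9 CPM in moDCs, mostly Cd4, with Cd3d, Cd3e and Cd3g at 0 reads. NK cell markers summed to 57.0 to 74.8 CPM in cDC2 and 24.4 to 41.8 CPM in moDCs, mostly Klrk1 and Klrb1c. Those genes were at 63.2 and 13.6 CPM in infarcted cDC1, and Ncr1, Gzma, Gzmb, Prf1 and Eomes were near 0 in both populations. Eosinophil markers summed to 28.1 to 29.5 CPM and 3.59 to 8.70 CPM, mostly Siglecf. The other lists ran, in cDC2 and moDCs, at 15.97 to 25.2 and 28.9 to 39.9 CPM (B cells), 124 to 139 and 135 to 167 CPM (plasmacytoid dendritic cells), 44.9 to 56.8 and 57.0 to 83.9 CPM (endothelium), 9.32 to 15.0 and 20.7 to 33.4 CPM (mural cells), 5.55 to 15.3 and 13.5 to 37.8 CPM (cardiomyocytes), and 1146 to 1453 and 869 to 973 CPM (fibroblasts, almost all Gsn). The plasmacytoid dendritic cell sum was mostly Tcf4 and Bst2. Mast cell and erythrocyte markers stayed under 2 CPM. The part of these cells in the results below was not tested.

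Of 13039 genes tested, 1323 (10.1%) were called at an adjusted p under 0.05, 585 higher in cDC2 (4.49%) and 738 higher in moDCs (5.66%). The genes higher in moDCs had the larger differences, with a median of 2.26-fold against 1.86-fold. A difference of at least 2-fold was called for 688 genes (5.28%), 255 higher in cDC2 (1.96%) and 433 in moDCs (3.32%). The median log2 difference of all genes tested was -0.029. The libraries of the 2 groups did not overlap for 3368 genes (25.8%). Without cDC2 replicate 2 the test called 792 genes, and with a spread estimated from the 7 libraries alone it called 2188, of which 50.2% were higher in cDC2 in place of 44.2%. Of the genes given below as not passing, Cd74, Tap1, Mgl2, Rela, Spi1, Spp1, Ccl3 and Fn1 passed with the 7 libraries alone (adjusted p from 2.65e-07 to 0.0448).

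Among the 10 genes with the largest differences in favour of cDC2, Selp, which encodes the adhesion molecule P-selectin, was at 19.1, 30.9 and 18.8 CPM in cDC2 and 0.291, 0.396, 0.598 and 2.101 CPM in moDCs (log2 4.74 ± 1.21 SE, adjusted p = 0.00989; log2 5.71 without moDC replicate 4). Kit, the stem cell factor receptor (chr5:75574916-75656722, plus strand, GRCm38), was at 141, 182 and 142 CPM against 12.9, 7.92, 13.9 and 22.01 CPM, with no overlap (10.9-fold, adjusted p = 4.99e-05). Btla, an inhibitory receptor of the immunoglobulin family, was 10.5-fold higher (adjusted p = 2.59e-04) and Epcam, an epithelial adhesion molecule also found on some dendritic cells, was 10.7-fold higher (adjusted p = 3.21e-07). Siglecg, a sialic acid binding receptor, was at 57.1 ± 3.503 CPM in cDC2 and 4.92 ± 3.04 CPM in moDCs. Ffar2, a receptor for short-chain fatty acids, was 17.4-fold higher, and Cd7 13.1-fold higher. The list was completed by the integrin gene Itgae (15.3-fold), the septin gene Sept3 (13.7-fold) and the phosphatase gene Ppm1j (12.4-fold). Some of these levels were far below those of cDC1: Itgae stood at 16.5 ± 4.74 CPM in cDC2 and at 953 ± 82.5 CPM (n = 4) in infarcted cDC1, and Btla at 88.2 ± 17.8 and 804 ± 26.1 CPM, while Siglecg was at 31.3 ± 7.10 CPM in cDC1.

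The genes with the largest differences in favour of moDCs included monocyte chemoattractants and genes of tissue macrophages. Ccl12 was at 0.377, 0.0992 and 0.867 CPM in cDC2 and 13.8, 18.6, 24.8 and 15.8 CPM in moDCs (log2 -5.31, adjusted p = 6.86e-07; -6.18 without cDC2 replicate 3). Ccl8 was at 0, 0.0992 and 1.16 CPM and 10.9, 20.4, 17.4 and 12.8 CPM (log2 -5.16, adjusted p = 1.58e-04; -8.00 without cDC2 replicate 3). Both encode chemokines that draw monocytes, and in both replicate 3 held most of the few cDC2 reads. Siglec1, the sialoadhesin of macrophages, was at 8.85, 2.28 and 3.28 CPM in cDC2 and 86.4, 63.7, 117 and 138 CPM in moDCs (log2 -4.39, adjusted p = 3.36e-08; -5.19 without cDC2 replicate 1). Cd109, a membrane protein that binds TGF-beta, was at 0.259 ± 0.249 against 16.6 ± 3.75 CPM (log2 -5.94, -6.76 without cDC2 replicate 2). Pf4, the chemokine platelet factor, was 25.4-fold higher in moDCs (adjusted p = 2.66e-05). Slco2b1, an organic anion transporter, was 22.5-fold higher. Folr2, a folate receptor of resident macrophages, differed by log2 -4.32 (-5.08 without cDC2 replicate 1), Cbr2, a carbonyl reductase gene, by -4.51 (-5.19 without cDC2 replicate 1) and the complement gene C4b by -4.15. Siglec1 was at 388 ± 90.2 CPM in the infarcted CD11c-negative macrophages, so moDCs held an intermediate level.

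**Figure D2:**
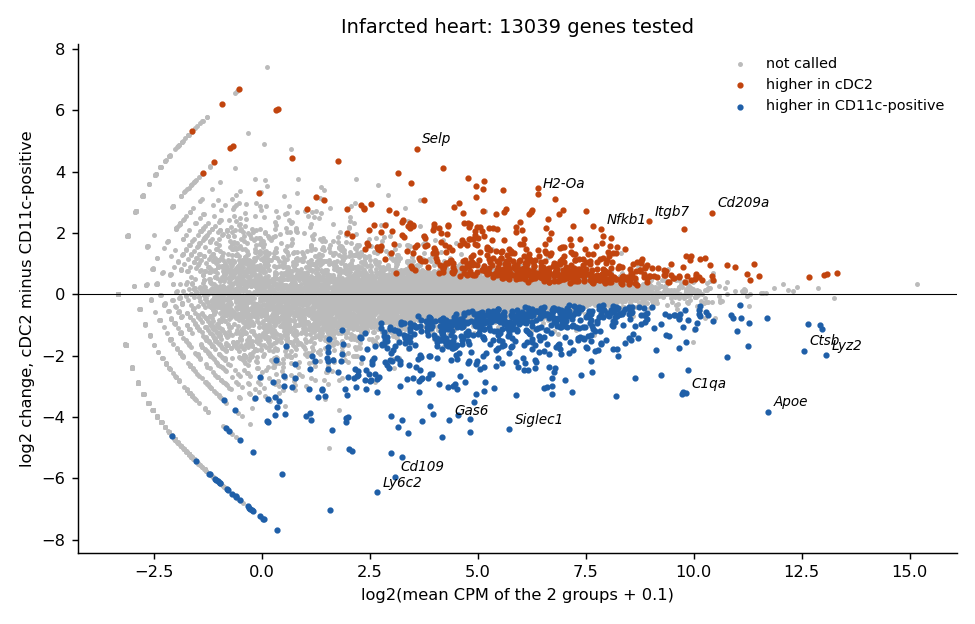
All 13039 genes tested, with the mean level of the 2 groups on the horizontal axis (log2 of mean CPM plus a small constant) and the log2 difference cDC2 minus CD11c-positive cells on the vertical axis. The 585 genes called higher in cDC2 and the 738 called higher in CD11c-positive cells are coloured; Apoe, in the second set, is 14.2-fold lower in cDC2.

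That intermediate place held for most called genes. Of the 738 genes higher in moDCs, 559 (75.7%) had a still higher mean in macrophages, against 49.5% of all genes tested. Of the 585 genes higher in cDC2, 447 (76.4%) had a macrophage mean below that of moDCs (49.8% of all genes), and 449 (76.8%) had a cDC1 mean above that of moDCs (46.9%). These shares compare means that share the moDC libraries and carry no test. The 24 monocyte and macrophage identity genes summed to 9239 to 13139 CPM in cDC2, 27881 to 32227 CPM in moDCs, 39667 to 42864 CPM in macrophages and 3926 to 4217 CPM in cDC1. cDC2 replicate 2 was the lowest of the cDC2 libraries (9239 CPM). The 26 genes of cDC2 and dendritic cells in general summed to 6848 to 7788 CPM in cDC2 and 2835 to 3430 CPM in moDCs.

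Of 25 dendritic cell genes tested, 19 were called higher in cDC2 and 0 higher in moDCs, with a median log2 difference of 1.91. Cd209a, a C-type lectin on the surface of cDC2, was at 2023, 2393 and 2765 CPM in cDC2 and 509.7, 284, 289.5 and 432 CPM in moDCs (6.32-fold, adjusted p = 6.99e-06). Clec10a, a galactose-binding lectin, was at 338 ± 43.8 against 72.6 ± 12.2 CPM. Ltb, which encodes lymphotoxin beta, was 6.72-fold higher (adjusted p = 9.02e-07), Dpp4 3.77-fold (adjusted p = 4.02e-04) and Bcl11a, a transcription factor, 6.18-fold (adjusted p = 0.00378). Mgl2 (867 ± 54.7 against 492 ± 81.2 CPM, adjusted p = 0.239) and Sirpa (1183 ± 78.4 against 1411 ± 41.0 CPM, adjusted p = 0.731), also used as cDC2 markers, did not pass. Reads of the Cd209 family and of Clec10a and Mgl2, which are near copies, could have been split by the counting.

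Of 24 monocyte and macrophage identity genes, 20 were called higher in moDCs and 0 higher in cDC2 (median log2 -1.54). Lyz2, the lysozyme of myeloid cells (chr10:117277331-117282321, minus strand), was at 3634, 2169 and 4582 CPM in cDC2 and 14987, 11386, 13745 and 14710.4 CPM in moDCs (3.96-fold, adjusted p = 6.37e-08). Adgre1, which encodes the macrophage antigen F4/80, was at 110.3, 66.7 and 137 CPM and 684, 610.5, 780.4 and 717 CPM (6.67-fold, adjusted p = 5.79e-10). Csf1r, the receptor for macrophage colony-stimulating factor, was at 1254 ± 135 CPM in cDC2 and 2850.3 ± 287 CPM in moDCs, a 2.27-fold difference (adjusted p = 2.42e-05). Neither gene was near 0 in cDC2. Of 24 genes of resident cardiac macrophages, 16 were higher in moDCs and 2 in cDC2 (median log2 -2.25). Gas6, which bridges dying cells to their receptors, was at 2.54, 1.88 and 2.22 CPM in cDC2 and 36.7, 38.3, 33.2 and 44.6 CPM in moDCs (17.1-fold, adjusted p = 3.22e-10), and Sepp1, which encodes selenoprotein P, was 5.60-fold higher in moDCs. The 2 that went the other way were Timd4, a phosphatidylserine receptor, at 109.7, 131 and 75.7 CPM in cDC2 and 10.0, 22.3, 24.0 and 25.5 CPM in moDCs (5.15-fold, adjusted p = 1.31e-05), and Cd163, the hemoglobin scavenger receptor, at 28.2 ± 8.29 against 13.1 ± 2.27 CPM (2.15-fold, adjusted p = 0.00429, and 0.0661 without cDC2 replicate 3). Both are known as markers of resident macrophages.

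Transcription factors moved in both directions, 9 of 32 higher in cDC2 and 8 higher in moDCs. Maf, a macrophage factor, was at 0.942, 1.29 and 0.867 CPM in cDC2 and 16.03, 17.9, 18.4 and 19.2 CPM in moDCs (17.2-fold, adjusted p = 1.93e-07). Irf8, best known for its role in cDC1 and monocytes, was 2.06-fold higher in moDCs (adjusted p = 3.42e-06), Cebpb 2.52-fold (adjusted p = 6.94e-04) and Pparg, a regulator of lipid genes, 2.84-fold (adjusted p = 4.16e-05). Bhlhe40, a repressor tied to cytokine control, was at 1299, 1419 and 1116 CPM in cDC2 and 453, 515, 504 and 691 CPM in moDCs (2.36-fold higher in cDC2, adjusted p = 0.00751). Spi1, which encodes the myeloid factor PU.1, was at 596 ± 24.4 and 502 ± 24.5 CPM (adjusted p = 0.169). Without moDC replicate 2 the list had 5 and 6 genes called. In a list of 20 genes used for classical monocytes, 3 were higher in cDC2 (Gm9733, Ifitm6 and Nr4a1) and 5 in moDCs. Nr4a1 is not particular to classical monocytes and is also in the immediate early list below. The moDC side included Chil3 (log2 -4.17, adjusted p = 0.00110, and log2 -4.83 without cDC2 replicate 3) and F13a1 (log2 -1.63). It also included Cybb, a subunit of the NADPH oxidase (log2 -0.67, adjusted p = 0.00404, and 0.0665 without cDC2 replicate 2). Without cDC2 replicate 2 the counts in this list were 2 and 3.

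MHC class II molecules are loaded with peptide in endosomes by H2-DM, which H2-O (H2-Oa with H2-Ob) holds back, and the genes share promoter boxes on which the coactivator CIITA is assembled. Of 15 class II genes tested, 8 were higher in cDC2 and 0 in moDCs (median log2 0.63; 5 without cDC2 replicate 3). H2-Oa (chr17:34092340-34095234, plus strand, GRCm38) was at 146, 148 and 161 CPM in cDC2 and 16.8, 12.8, 12.96 and 20.3 CPM in moDCs (9.66-fold, adjusted p = 3.83e-07). H2-Ob (chr17:34238903-34254414, plus strand) was at 148, 186 and 166 CPM and 35.4, 26.7, 25.4 and 34.9 CPM (5.44-fold, adjusted p = 2.64e-10). For both modulators the lowest cDC2 library lay far above the highest moDC library. The loading subunit gene H2-DMb2 was at 475, 587 and 601 CPM in cDC2 and 259.9, 259, 238 and 303 CPM in moDCs (2.09-fold, adjusted p = 1.65e-05), and H2-DMb1 was 1.55-fold higher (adjusted p = 0.00787). Ciita was at 343, 351 and 301 CPM and 150.4, 132, 133 and 172 CPM (2.26-fold, adjusted p = 1.72e-04).

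The class II molecules themselves differed less. H2-Ab1 was at 11845, 12570.3 and 13517 CPM in cDC2 and 7576, 7053, 7495 and 8971 CPM in moDCs (1.63-fold, adjusted p = 0.00417). H2-Aa (1.55-fold, adjusted p = 0.0107) and H2-Eb1 (1.56-fold, adjusted p = 0.0109) were close to it. Without cDC2 replicate 3 neither passed (0.0544 and 0.0588), nor did H2-DMb1 (0.0595), which also missed without replicate 2 (0.058). Cd74, the invariant chain that fills the groove before loading, was at 41696 ± 2299 CPM in cDC2 and 32804 ± 5587 CPM in moDCs and did not pass (adjusted p = 0.272). Balb/c alleles of H2 genes can lose reads against a reference of another strain, in both populations alike.

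The promoters of 4 of the 8 class II genes called higher in cDC2 are shown for their X and Y boxes; each is the 250 bases before the RefSeq start in GRCm38.p6 (a C57BL/6J assembly), written from 5′ to 3′ on the gene's strand, with the letters of the X box (CCNAGCAAC) and of the Y box (TGATTGG) in capitals. Both strands were searched, the boxes do not overlap, and the letters were chosen after the promoters had been read. The X box letters had no match in H2-DMb2 or H2-Aa, so only the Y box is marked there. A variant of the box would be missed by these letters.
H2-Oa, chr17:34092129-34092378, plus strand: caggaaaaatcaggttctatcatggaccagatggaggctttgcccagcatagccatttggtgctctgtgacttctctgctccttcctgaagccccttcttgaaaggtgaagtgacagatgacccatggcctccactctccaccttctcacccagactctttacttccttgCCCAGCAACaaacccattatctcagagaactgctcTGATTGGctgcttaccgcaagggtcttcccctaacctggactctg
H2-Ob, chr17:34238655-34238904, plus strand: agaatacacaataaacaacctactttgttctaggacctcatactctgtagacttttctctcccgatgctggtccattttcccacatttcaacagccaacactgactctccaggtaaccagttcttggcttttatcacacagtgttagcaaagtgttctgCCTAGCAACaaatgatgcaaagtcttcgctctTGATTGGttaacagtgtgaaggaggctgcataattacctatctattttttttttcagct
H2-DMb2, chr17:34144999-34145248, plus strand: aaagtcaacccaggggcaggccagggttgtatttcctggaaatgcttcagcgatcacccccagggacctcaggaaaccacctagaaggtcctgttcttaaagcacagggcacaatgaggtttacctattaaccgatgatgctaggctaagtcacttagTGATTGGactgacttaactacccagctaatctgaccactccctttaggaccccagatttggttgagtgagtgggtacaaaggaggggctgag
H2-Aa, chr17:34287824-34288073, minus strand: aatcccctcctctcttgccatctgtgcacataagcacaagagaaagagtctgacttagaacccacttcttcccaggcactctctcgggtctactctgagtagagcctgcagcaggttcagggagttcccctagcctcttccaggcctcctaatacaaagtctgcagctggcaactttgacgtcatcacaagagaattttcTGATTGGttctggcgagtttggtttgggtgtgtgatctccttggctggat

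The X box began 80 bases before the RefSeq start in H2-Oa and 91 in H2-Ob, and the Y box 45 and 59 bases before it. The GENCODE positions given above for these genes begin inside the windows, mainly for H2-Oa. Distances from those starts would be shorter. Over 32851 promoters of this length the X box letters occurred in 1.77% and the Y box letters in 7.23%. Of 10 class II list genes with a promoter in the table, 2 held the X box letters and 4 held them without the first C (CNAGCAAC), which occurred in 3.48% of all promoters; this shorter string, too, was chosen after the promoters had been read. The Y box letters were in 8 of the 10, including H2-DMb2 (92 bases before the start) and H2-Aa (50 bases before it). A match is a string of letters in these windows, and binding was not measured.

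Of 19 genes of MHC class I presentation, edgeR's test called 0, with 6 at an unadjusted p under 0.05 and 2 called by DESeq2 (both higher in cDC2). Tap1, a subunit of the peptide transporter, was at 243 ± 7.27 CPM in cDC2 and 193 ± 25.5 CPM in moDCs (adjusted p = 0.0619) and passed with RLE factors (0.0493), in DESeq2 (0.0249), with a replicate block (0.0122) and without moDC replicate 4 (0.0224). The list had 3 calls without moDC replicate 4, and 5 higher and 1 lower in cDC2 with the block. Lysosomal proteases leaned the other way, with 11 of 20 higher in moDCs and 3 in cDC2. Ctsb, which encodes cathepsin B, was at 3373, 1926 and 2628 CPM in cDC2 and 9822, 8672, 9519.5 and 9758 CPM in moDCs (3.57-fold, adjusted p = 2.92e-09). Ctsl was 5.83-fold and the asparaginyl protease gene Lgmn 3.39-fold higher in moDCs (adjusted p = 1.22e-05 and 2.87e-08), and the lysosomal membrane gene Lamp1 2.21-fold (adjusted p = 2.06e-06). Ctss, the cathepsin that cuts the invariant chain, was higher in moDCs too, at 4190.4 ± 316 against 2473 ± 346 CPM (adjusted p = 2.19e-04). The 3 higher in cDC2 were Napsa, an aspartic protease gene, at 1152, 1552 and 1591 CPM in cDC2 and 339, 345, 281 and 358 CPM in moDCs (4.33-fold, adjusted p = 1.01e-04), the thiol reductase gene Ifi30 (1.59-fold) and Prcp (1.61-fold).

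Of 19 costimulatory and coinhibitory genes, 4 were higher in cDC2: Icosl (72.6 ± 10.4 against 29.8 ± 7.24 CPM, adjusted p = 9.80e-04), Tnfsf9, the ligand of 4-1BB (359, 304 and 386 CPM in cDC2 and 161, 135, 176 and 181 CPM in moDCs, adjusted p = 7.58e-04), Cd80 (2.14-fold, adjusted p = 0.00676) and Cd86 (1.55-fold, adjusted p = 0.0177). The call of Cd80 was lost without cDC2 replicate 2 (0.0735), and that of Cd86 without cDC2 replicate 1 (0.0658) or 2 (0.0933) or moDC replicate 1 (0.0537). Cd276, the coinhibitory ligand B7-H3, was at 4.14, 5.16 and 5.11 CPM in cDC2 and 38.7, 33.4, 39.6 and 40.7 CPM in moDCs (7.92-fold higher in moDCs, adjusted p = 8.04e-09). Cd40 did not pass (59.0 ± 4.15 against 45.0 ± 9.09 CPM, adjusted p = 0.437). Without cDC2 replicate 2 the counts were 2 and 1, and with only the 7 libraries 7 and 1. The main fit called 26.3% of this list, against 10.1% of all genes tested. Of 23 genes of dendritic cell maturation and migration, 3 were higher in cDC2 (Traf1, Nfkb2 and Ebi3) and 2 in moDCs (Marcks and Cd63), and 1 and 0 without cDC2 replicate 2, or 2 and 1 without moDC replicate 1. In all 21.7% of that list was called in the main fit. Of all genes tested, 4.49% were called higher in cDC2 and 5.66% higher in moDCs. The migration receptor Ccr7 was at 1039.7, 535 and 412 CPM in cDC2 and 106, 379, 727 and 964 CPM in moDCs, so the replicates of each group spread over the range of the other (adjusted p = 0.908). Fscn1, an actin bundler of mature dendritic cells, ran with it at 786, 246 and 159 CPM and 71.6, 293, 491 and 676 CPM (adjusted p = 0.996). Replicate 1 was the highest of the cDC2 libraries and the lowest of the moDC libraries for both.

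Of 18 genes of NF-kB factors, which switch on inflammatory genes, and their regulators, 8 were higher in cDC2 and 1 in moDCs. Nfkb1, which encodes the p50 subunit (chr3:135584655-135691547, minus strand), was at 329, 382 and 413 CPM in cDC2 and 91.4, 81.5, 87.1 and 86.2 CPM in moDCs (4.33-fold, adjusted p = 8.04e-09). It was also at 76.2 ± 1.83 CPM in infarcted cDC1 and 68.5 ± 5.94 CPM in macrophages (n = 4 each), so cDC2 were the highest of the 4 populations. Nfkbid (2.14-fold, adjusted p = 0.00411) and Rel (1.75-fold, adjusted p = 0.00442) followed, as did the inhibitor genes Nfkbia (1.52-fold, adjusted p = 0.00734) and Tnfaip3 (1.56-fold, adjusted p = 0.0375). Rela was at 257 ± 9.39 against 206 ± 25.4 CPM (adjusted p = 0.159). The 1 on the moDC side was the kinase gene Ikbke (6.74-fold, adjusted p = 0.00611). Without cDC2 replicate 2 the counts were 4 and 1 and Rel was lost (0.057), and with only the 7 libraries they were 13 and 1. Tnfaip3 was lost without any 1 of moDC replicates 1, 2 or 3 or cDC2 replicates 1 or 2 (adjusted p from 0.0911 to 0.164).

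Immediate early and heat shock genes gave 5 of 24 higher in cDC2 (20.8%, against 4.49% of all genes tested) and 0 in moDCs. Nr4a1, an orphan nuclear receptor induced by stimulation, was at 1618, 1847 and 1764 CPM in cDC2 and 696, 847, 846 and 1214 CPM in moDCs (adjusted p = 0.00629), and Egr3 was 4.56-fold higher (adjusted p = 0.00105).  The counts were 13 and 0 with a replicate block, 9 and 0 with only the 7 libraries, and 3 and 0 without cDC2 replicate 1.

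Genes of the interleukin-1 family were called in both directions. Il1b, encoding interleukin-1 beta, was at 2221, 2785 and 2812 CPM in cDC2 and 1159, 1394, 1375 and 1670.2 CPM in moDCs (1.86-fold higher in cDC2, adjusted p = 0.00338). Il1rn, which encodes the antagonist of the same receptor, was at 67.3, 48.8 and 56.6 CPM in cDC2 and 167, 215, 229 and 262 CPM in moDCs (3.79-fold higher in moDCs, adjusted p = 5.99e-04). Il1a was 2.11-fold higher in moDCs (adjusted p = 0.0178), a call lost without cDC2 replicate 1 (0.135) or 2 (0.0639) or moDC replicate 2 (0.0655). The decoy receptor gene Il1r2 was at 87.8, 169 and 121 CPM in cDC2 and 13.2, 33.1, 16.4 and 19.6 CPM in moDCs (6.12-fold, adjusted p = 0.00369), and the interleukin-33 receptor gene Il1rl1 was 2.48-fold higher in cDC2 (adjusted p = 5.78e-04). These were all 5 calls among 20 genes of the family. Among 16 T cell polarising cytokine genes, Il1b, Ebi3 and Tnfsf9 were higher in cDC2 and Il1a in moDCs (2 and 0 calls without cDC2 replicate 2). Each of these 2 lists had 25% of its genes called, against 10.1% of all genes tested. Il6 was at 6.44 ± 0.409 and 4.59 ± 1.25 CPM (adjusted p = 0.688).

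Of 23 chemokine genes, 12 were higher in moDCs and 0 in cDC2 (median log2 -1.22). Besides Ccl12, Ccl8 and Pf4, the monocyte attractants Ccl7 (6.62-fold, adjusted p = 1.38e-06) and Ccl2 (3.09-fold, adjusted p = 5.75e-05) were higher. The neutrophil attractant Cxcl1 was at 25.0, 21.03 and 17.4 CPM in cDC2 and 92.6, 109, 92.9 and 94.9 CPM in moDCs (4.60-fold, adjusted p = 2.23e-05), and Cxcl2 was 2.31-fold higher (adjusted p = 6.83e-04). Ccl3 (75.1 ± 10.8 against 112 ± 15.2 CPM) did not pass (adjusted p = 0.182). Ccl8 and Ccl12 have close relatives whose reads the counting could have split. Of 24 receptors for attractants, 8 were higher in moDCs and 2 in cDC2. C3ar1, the receptor for complement C3a, was at 224, 91.8 and 189 CPM in cDC2 and 1045, 1019, 1104 and 974 CPM in moDCs (6.15-fold, adjusted p = 6.74e-07). C5ar1 (7.02-fold), the sphingosine phosphate receptor gene S1pr1 (8.05-fold, adjusted p = 6.86e-06) and the fractalkine receptor gene Cx3cr1 (2.81-fold, adjusted p = 1.70e-05) were on the same side. The 2 on the cDC2 side were Ccr6, at 48.0, 45.1 and 44.1 CPM in cDC2 and 18.6, 10.3, 10.97 and 12.2 CPM in moDCs (adjusted p = 0.0256), and Gpr183, the oxysterol receptor that positions dendritic cells in lymphoid tissue, at 255, 310.3 and 266 CPM and 126, 133, 182 and 185 CPM (adjusted p = 9.56e-04). The call of Ccr6 was lost without any 1 of the 7 libraries other than moDC replicate 1 (adjusted p from 0.0657 to 0.0854).

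Of 28 type I interferon response genes, 15 were higher in moDCs and 0 in cDC2 (median log2 -0.86). Irf7, which amplifies the response, was at 105, 80.3 and 129.7 CPM in cDC2 and 218, 262, 314 and 295 CPM in moDCs (2.60-fold, adjusted p = 1.50e-05), Oasl2 was 5.09-fold higher (adjusted p = 3.01e-04) and Oasl1 2.46-fold (adjusted p = 6.15e-04). Isg15 (19.05 ± 7.74 against 25.2 ± 4.36 CPM, adjusted p = 0.451) did not pass. Without cDC2 replicate 2 there were 5 calls in the list (median log2 -0.67). Of 18 Toll-like receptor genes and partners, 9 were higher in moDCs, among them Tlr8 (4.25-fold, adjusted p = 3.03e-08), Tlr7 (5.14-fold, adjusted p = 3.44e-04), Tlr13 (2.87-fold, adjusted p = 2.39e-06) and Tlr4 (2.61-fold, adjusted p = 4.33e-06). The adaptor gene Myd88 was the 1 higher in cDC2 (1.52-fold, adjusted p = 0.00877, and 0.134 without cDC2 replicate 2). Of 16 Fc receptor genes, 5 were higher in moDCs, with Fcgr3 at 3.01-fold (adjusted p = 0.00385) and the inhibitory Fcgr2b at 1.35-fold (adjusted p = 0.0107). The count was 3 without moDC replicate 1, cDC2 replicate 1 (where Fcgr2b was lost, 0.0575) or cDC2 replicate 2. Of 30 C-type lectin genes, Cd209a, Clec10a and Cd209d were higher in cDC2 and Clec12a and Clec7a in moDCs (2 and 1 calls without moDC replicate 2 or 3, and 10 and 9 with only the 7 libraries). In all 16.7% of that list was called, against 10.1% of all genes tested.

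Of 20 complement genes, 10 were higher in moDCs and 2 in cDC2 (median log2 -2.73). C1qa was at 206, 85.9 and 229 CPM in cDC2 and 1459, 1469, 1815 and 1782 CPM in moDCs (9.39-fold, adjusted p = 6.38e-07), and C1qb (9.62-fold) and C1qc (9.03-fold) matched it. These chains of C1q tag dying cells, and C1qa was at 1.15 ± 0.637 CPM in cDC1 and 3941 ± 525 CPM in macrophages (n = 4 each), and cDC2 lay between. cDC2 replicate 2 had less than the other two for each of the 3 chains. The exceptions were Itgax and Cfp, the gene for properdin, at 1018, 1478 and 1454 CPM in cDC2 and 578, 662, 583 and 622 CPM in moDCs (2.15-fold, adjusted p = 0.00274). Of 23 efferocytosis and scavenger receptor genes, 12 were higher in moDCs and 2 (Timd4 and Cd163) in cDC2. Msr1, the class A scavenger receptor, was at 46.8 ± 8.05 against 289.8 ± 45.1 CPM (6.19-fold, adjusted p = 1.81e-08), and Axl at 741 ± 193 against 1409.9 ± 160.0 CPM (1.90-fold, adjusted p = 0.0106; 0.095 and 0.0536 without cDC2 replicates 2 and 3).

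Lipid handling had 13 of 23 genes higher in moDCs and 0 in cDC2 (median log2 -1.20). Apoe, the lipoprotein that carries cholesterol out of phagocytes (chr7:19696109-19699188, minus strand), was at 508, 215 and 614 CPM in cDC2 and 5879, 4744, 6375 and 8279 CPM in moDCs (14.2-fold, adjusted p = 8.04e-09). Trem2, a lipid receptor, was at 40.6, 13.4 and 32.4 CPM and 266, 235, 274 and 264 CPM (9.02-fold, adjusted p = 8.62e-08). Abca1, the cholesterol exporter, was 8.01-fold higher (adjusted p = 1.23e-05) and Plin2, which coats lipid droplets, 2.67-fold (adjusted p = 2.13e-07). Spp1, high in macrophages of injured tissue, was at 519 ± 76.0 against 1524 ± 206 CPM and did not pass (adjusted p = 0.0531), though it did with upper-quartile factors (0.0455), in DESeq2 (0.0222) and with a replicate block (0.00342). Iron and heme genes gave 10 of 20 higher in moDCs and 1 (Cd163) in cDC2. Hmox1, which breaks down heme, was at 41.2, 29.2 and 35.6 CPM in cDC2 and 174, 231, 172 and 167 CPM in moDCs (5.27-fold, adjusted p = 3.20e-07). The iron exporter gene Slc40a1 was 8.56-fold (adjusted p = 2.42e-05), the ferritin gene Fth1 1.95-fold (adjusted p = 3.20e-07) and the transferrin gene Trf 2.12-fold higher in moDCs (adjusted p = 8.04e-09).

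Of 28 matrix and repair genes, 11 were higher in moDCs and 0 in cDC2, and 17 with only the 7 libraries. Arg1 was at 2.07, 10.9 and 19.8 CPM in cDC2 and 39.0, 210.4, 103 and 75.2 CPM in moDCs, a wide spread within both groups (9.77-fold, adjusted p = 0.0494). The call of Arg1 was lost without any 1 of cDC2 replicates 1, 2 or 3 or moDC replicates 2, 3 or 4 (adjusted p from 0.0579 to 0.188), without a filter (0.072), with the 7 libraries alone (0.0731) and in DESeq2 (0.0536), and its log2 difference went from -3.29 to -4.05 without cDC2 replicate 3. Thbs1, which encodes thrombospondin, was 8.94-fold higher (log2 -3.16, -3.79 without cDC2 replicate 3; adjusted p = 4.03e-04), the plasminogen activator gene Plau 2.56-fold (adjusted p = 8.50e-05), Timp2 2.46-fold (adjusted p = 3.49e-05) and Tgfbi 1.62-fold (adjusted p = 1.01e-04). Fn1, encoding fibronectin, did not pass (639.6 ± 56.8 against 1432 ± 318 CPM, adjusted p = 0.397). Integrins separated by subunit, with 4 of 20 on each side. Itgb7, which pairs with alpha 4 or alpha E, was at 729.6, 888 and 889 CPM in cDC2 and 181, 155, 121 and 187 CPM in moDCs (5.19-fold, adjusted p = 1.04e-05), with Itgae, Itgax and Itgb2 beside it. Itga9 (7.30-fold, adjusted p = 6.81e-06), Itga6 (5.20-fold, adjusted p = 8.99e-06), Itgb5 and Itgav were higher in moDCs. Without cDC2 replicate 2 or 3 the integrin counts were 2 and 3.

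Of 28 oxidative phosphorylation genes, edgeR's test and DESeq2 called 0, with 1 at an unadjusted p under 0.05. Of 25 glycolysis and hypoxia genes, Ndrg1 (1.78-fold, adjusted p = 0.00937) and Bnip3 (1.52-fold, adjusted p = 0.0109) were higher in moDCs and 0 in cDC2. These are 8% of the list, near the 5.66% of all genes called higher in moDCs. Ndrg1 was lost without cDC2 replicate 1 (0.051) or 2 (0.0546), Bnip3 without cDC2 replicate 1 (0.0678) or moDC replicate 2 (0.0697). Of 31 cell cycle genes, 4 (12.9%, against 5.66% of all genes) were higher in moDCs and 0 in cDC2 (median log2 -0.54): Pcna (1.37-fold, adjusted p = 0.0187), E2f1 (1.72-fold, adjusted p = 0.0103), Tyms (1.72-fold, adjusted p = 0.0482) and Birc5 (2.02-fold, adjusted p = 0.0488). Leaving out any 1 of the 7 libraries brought that count to between 0 (without cDC2 replicate 2) and 2, and it was 9 with only the 7 libraries. Mki67 was at 8.27 ± 4.19 and 13.3 ± 2.90 CPM (adjusted p = 0.765).

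**Figure D3:**
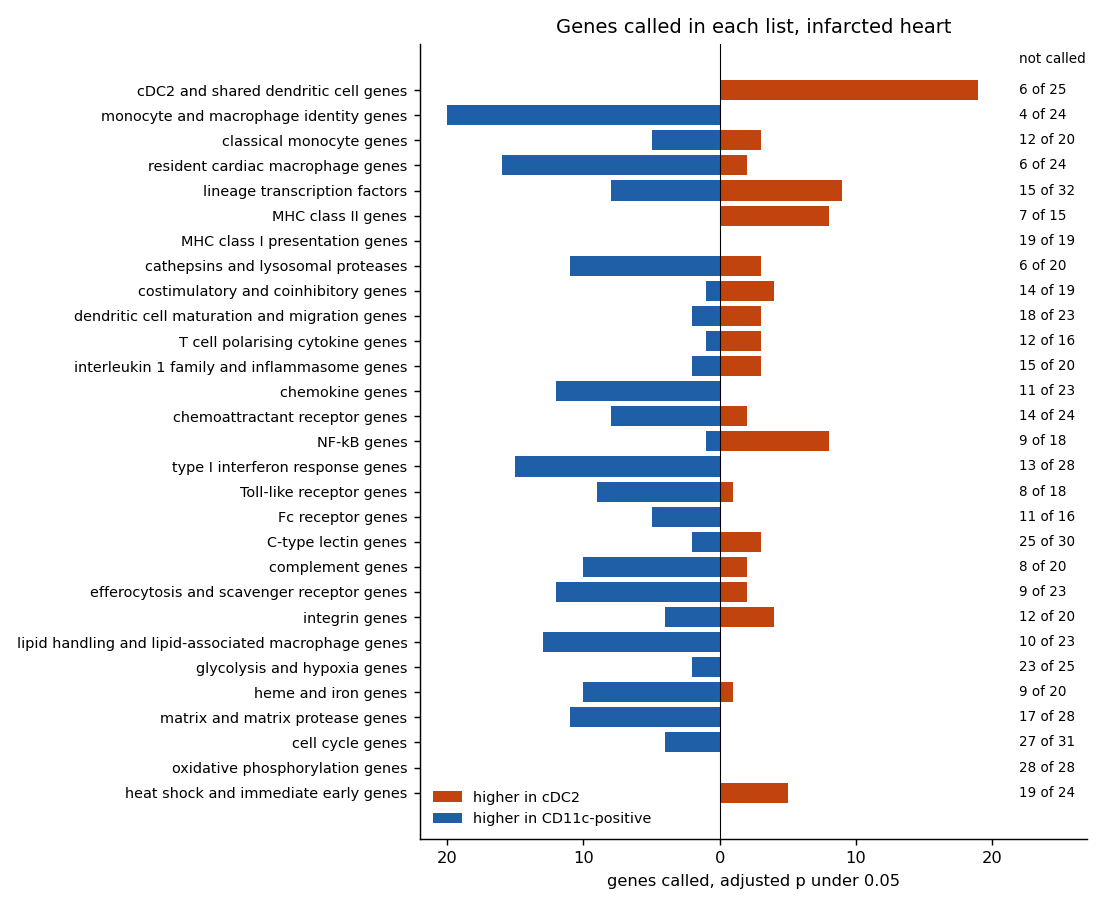
Genes called in each of 29 lists, as bars to the right (higher in cDC2) and to the left (higher in CD11c-positive cells), with the number not called of those tested at the right edge. Dendritic cell, MHC class II, NF-kB and immediate early genes had more calls to the right, with 19, 8, 8 and 5; macrophage, complement, lipid, iron, chemokine, interferon and matrix genes had more to the left. Over all genes tested, 4.49% were called higher in cDC2 and 5.66% higher in CD11c-positive cells. Some genes belong to more than 1 list.

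The same contrast was then read in the steady state, between 4 cDC2 and 4 moDC libraries that entered the same fit as the infarct contrast and so shared its filter and estimate of the spread. There 2008 of 13039 genes (15.4%) were called, 959 higher in cDC2 (7.35%) and 1049 in moDCs (8.05%). Of the 1323 genes called in MI, 756 were called in SS in the same direction, which is 57.1% of the MI calls and 37.6% of the SS calls, and 8 were called in the opposite direction. The sign was the same in SS for 92.1% of the MI calls and for 65.4% of all genes tested. Nfkb1 (3.21-fold higher in cDC2 in SS) and H2-Oa (6.405-fold) had the same direction, as did Apoe (7.23-fold lower in cDC2), C1qa (5.75-fold) and Gas6 (12.9-fold). The difference between the states was not called for these genes (adjusted p = 0.613, 0.739, 0.328, 0.618 and 0.763).

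The difference of the contrast between MI and SS was called for 118 genes (0.905%), 54 shifted toward cDC2 in MI (0.414%) and 64 toward moDCs (0.491%). Of these, 18 were called in MI alone as higher in cDC2, 30 in MI alone as higher in moDCs, 50 in SS alone, 12 in both with the same direction and 8 in both with opposite directions. The count was 58 without MI cDC2 replicate 2, 76 without SS moDC replicate 2 and 225 without SS moDC replicate 3. Marker sums differed between the states too. The 24 monocyte and macrophage identity genes summed to 24963 to 37895 CPM in SS cDC2 and 9239 to 13139 CPM in MI cDC2. In moDCs they summed to 34478 to 43730 CPM in SS and 27881 to 32227 CPM in MI. This list is not independent of the genes below: the difference was called for 4 of its 24 genes, Lyz2 among them. Lyz2 alone made up most of the sum in each SS cDC2 library (levels below). The resident cardiac macrophage list summed to 2023 to 2627 CPM in SS cDC2 and 1102 to 1253 CPM in MI cDC2. In moDCs that list summed to 5792 to 7383 CPM in SS and 3108 to 3362 CPM in MI. The classical monocyte list summed to 8080 to 9910 CPM in SS cDC2 and 6405 to 7420 CPM in MI cDC2, and its moDC ranges overlapped. The dendritic cell list overlapped between the states in both populations. SS moDC libraries also held more of the cardiomyocyte list (72.9 to 208 CPM, against 13.5 to 37.8 CPM in MI), the mural list (49.2 to 379 against 20.7 to 33.4 CPM) and the endothelial list (106 to 341 against 57.0 to 83.9 CPM). The same order held in moDCs for the T cell list (31.8 to 124 against 16.7 to 25.9 CPM), the NK cell list (48.6 to 96.3 against 24.4 to 41.8 CPM), the plasmacytoid dendritic cell list (171 to 412 against 135 to 167 CPM) and the mast cell and basophil list (1.17 to 15.6 against 0 to 0.874 CPM). In cDC2 the NK cell list (107 to 130 CPM in SS against 57.0 to 74.8 in MI), the neutrophil list (35.0 to 144 against 19.9 to 31.5 CPM), the B cell list (25.7 to 34.1 against 15.97 to 25.2 CPM) and the mast cell and basophil list (2.41 to 11.2 against 0.0942 to 1.79 CPM) were higher in SS without overlap. The fibroblast list (771 to 1064 against 1146 to 1453 CPM) and the eosinophil list (13.7 to 23.2 against 28.1 to 29.5 CPM) were lower there. The part of these sums in the differences below was not tested, and any difference in preparation between SS and MI hearts cannot be told apart from infarction.

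Lyz2 shifted toward moDCs. In SS it was at 14339, 25126, 23415 and 15338 CPM in cDC2 and 16396, 20172, 25158 and 17143 CPM in moDCs, 2 overlapping groups, while in MI its cDC2 level was 3.96-fold below that of moDCs (log2 difference of the contrasts -1.97 ± 0.27 SE, adjusted p = 1.16e-04). Lyz1, its near copy, was at 7254 ± 2222 CPM in cDC2 and 3486 ± 1742 CPM in moDCs in SS, and at 462 ± 179 and 1344 ± 186 CPM in MI (log2 -2.60, adjusted p = 4.73e-04); reads of the pair could have been split. Hmox1 was at 291, 290.0, 141 and 293 CPM in SS cDC2 and 294, 354, 260.5 and 322 CPM in SS moDCs, against 35.3 ± 6.04 and 186 ± 30.4 CPM in MI (log2 -2.12 ± 0.35 SE, adjusted p = 0.00113). Trf was at 2009 ± 222 and 1796 ± 109 CPM in SS and at 556 ± 65.2 and 1177 ± 93.1 CPM in MI (log2 -1.24, adjusted p = 4.79e-06). Il1rn was at 285 ± 119.8 and 252 ± 109.8 CPM in SS and 57.6 ± 9.30 and 218 ± 39.3 CPM in MI (log2 -2.10, adjusted p = 0.0272), a difference that missed the threshold in most leave-one-out fits (up to 0.115, without MI cDC2 replicate 2). The lipid genes Pparg (log2 -1.74), Lpl (log2 -1.77) and Cd36 (log2 -1.93) shifted the same way (adjusted p = 0.00360, 0.0117 and 0.00479), as did Cebpb (log2 -1.62, adjusted p = 0.0137) and the iron transporter gene Slc11a1 (log2 -1.54, adjusted p = 0.0143). Without MI cDC2 replicate 2, Lpl (0.0648), Cebpb (0.055) and Slc11a1 (0.0697) no longer passed, and Cebpb missed without replicate 1 as well (0.0544).

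Other genes shifted toward cDC2. Trp53i11 was at 119, 136 and 136 CPM in MI cDC2 and 22.05, 22.5, 14.5 and 23.1 CPM in MI moDCs, and at 18.3, 24.9, 27.7 and 34.7 and 30.8, 44.1, 19.5 and 32.7 CPM in SS, so the lowest MI cDC2 library lay above every library of the other 3 groups (log2 2.94 ± 0.35 SE, adjusted p = 7.06e-06). H2-Ob differed 5.44-fold in MI and 2.32-fold in SS (adjusted p of the difference 0.0119, and 0.0648 without MI cDC2 replicate 2). Cd86 was at 96.7, 128, 130.5 and 116 CPM in SS cDC2 and 214, 251, 104 and 125 CPM in SS moDCs, where moDCs were called higher (adjusted p = 0.0197), and the order was the other way in MI (log2 difference 1.19, adjusted p = 0.00913, and 0.0855 with only the 15 libraries). The SS call was lost without SS moDC replicate 1 (0.0965) or 2 (0.188) or SS cDC2 replicate 1 (0.0753), and with only the 8 SS libraries (0.185). Gpr183 was at 132 ± 34.2 and 191 ± 39.3 CPM in SS, the order opposite to MI (adjusted p of the difference 0.00123); its SS call was lost without SS cDC2 replicate 1 (0.0846) or 2 (0.0793) or SS moDC replicate 2 (0.117), and with only the 8 SS libraries (0.0936). Alox5, which starts leukotriene synthesis, was at 79.4 ± 9.40 and 135 ± 21.7 CPM in SS and at 78.1 ± 2.91 and 40.5 ± 5.59 CPM in MI (adjusted p of the difference 0.00467), and its SS call was lost without SS moDC replicate 2 (0.057) and stood at the threshold without SS cDC2 replicate 2 (0.05). Ggt5, Gm7609, Lyz1, Ccl6 and Nqo2 were the other genes called in opposite directions, the last 3 shifted toward moDCs; these 8 were named after their values were seen.

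**Figure D4:**
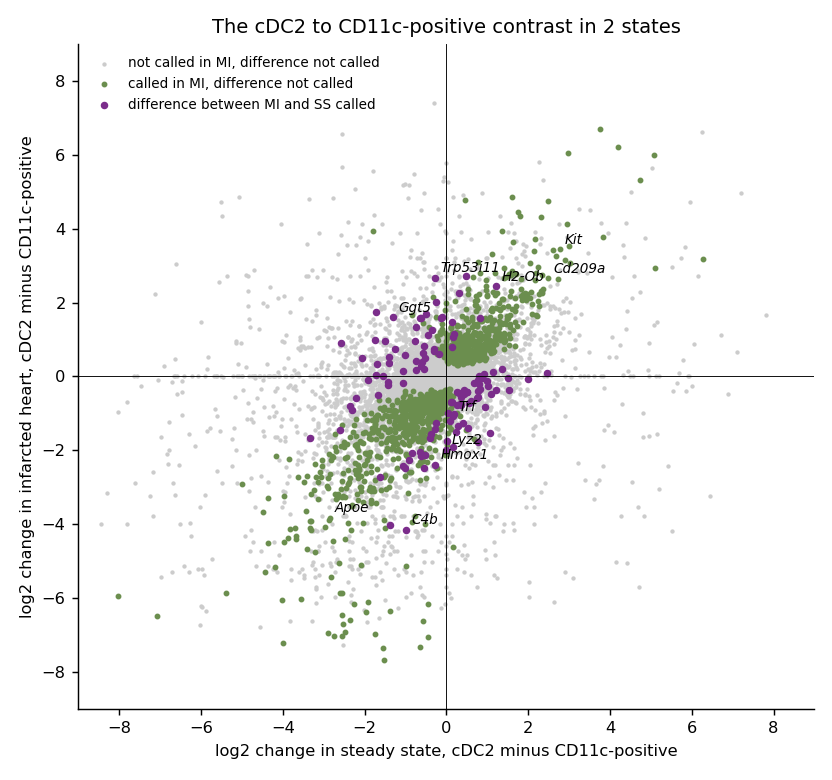
Log2 difference cDC2 minus CD11c-positive cells in infarcted hearts (vertical axis) against that in the steady state (horizontal axis) for 13039 genes; the 118 genes whose difference between the states was called are in purple. Apoe, Kit and Cd209a are on one side of 0 in both states, while Lyz2, Hmox1 and Trf lie near 0 on the horizontal axis and below 0 on the vertical one.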

How the data were processed

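RNA from sorted heart cells was sequenced as 75 nt single reads. The deposited files hold the authors' raw read counts per gene symbol, made with FastQC 0.11.4, Trimmomatic 0.35, TopHat2 2.1.0, SAMtools 0.1.18 and mm10, per the submitters' processing notes; no source used here names the counting tool, its annotation or its strand setting. Each file has 24421 gene symbols, and 5 entries that name no gene were left out.

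Counts of all 31 libraries (8 groups) were fitted together with edgeR 4.0.16 (R 4.3.3, limma 3.58.1): TMM factors, filterByExpr with a minimum count of 10 (13039 genes), robust quasi-likelihood tests and Benjamini-Hochberg adjustment over all genes, called at 0.05. Fold changes come from that fit, and CPM from the counts and TMM-scaled library sizes. The contrasts were cDC2 against moDC in MI, the same in SS, and their difference. On simulated counts (12690 genes) for the MI contrast, 52% of 100 genes changed 2-fold and 79% of 100 changed 4-fold were recovered, with 2 false calls. The changed genes were drawn from those above a minimum level in moDCs, and no other gene was changed. That is a far smaller share than was called in the data, so these rates need not hold there. An exact permutation test of 3 against 4 libraries cannot go below 0.0571.

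Alternatives were RLE and upper-quartile factors, no filter, a replicate block, only the groups compared, DESeq2 1.42.0, and leaving out each of 15 libraries. Lists and members were chosen with earlier results of these data known. Genes were named by rule: the 10 largest differences each way among called genes of at least 10 CPM with no overlap, up to 3 members of each list with the smallest adjusted p, 10 label-check genes, and the 5 largest differences between states each way; unnamed transcripts were left out. Other list members were named for their role after their values were seen; some genes are not reported here. Positions are from GENCODE M21 (102 of 104 rule-named symbols matched) and promoters from RefSeq (GRCm38.p6). The counting could have split reads of near copies (Lyz1 and Lyz2, Ly6c2 and its relatives, C4b, the Cd209, Ccl and H2 families), and overlapping or antisense genes cannot be told apart where strand was not used.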

Additional observations from a re-analysis of the deposited data

Results flagged for a closer look

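Of 165 genes examined singly, 10 had 1 of the 4 moDC libraries of infarcted hearts apart from the other 3 by more than Dixon's 95% limit, which chance exceeds in about 1 of 20 groups. The share of 10 in 165 is near that rate. Selp was at 2.101 CPM in replicate 4 (0.291 to 0.598 in the others), Lgmn at 1339.6 CPM in replicate 3 (1228 to 1243), Cxcl1 at 109 CPM in replicate 2 (92.6 to 94.9) and Hmox1 at 231 CPM in replicate 2 (167 to 174). Colec12, a scavenger receptor gene, was at 169.99 CPM in replicate 4 (116 to 119.8), Tnfaip3 at 697 CPM in replicate 4 (499.8 to 528), Trp53i11 at 14.5 CPM in replicate 3 (22.05 to 23.1) and Alox5 at 32.2 CPM in replicate 3 (42.7 to 44.1). Ecm1 was at 146 CPM in replicate 1 (194 to 202) and Fn1 at 961 CPM in replicate 1 (1544 to 1657). The 3 cDC2 libraries are too few for this check.

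For 26 named genes the contrast between cDC2 and moDCs differed between the infarcted and the steady state by edgeR's test of the difference itself (log2 values, MI minus SS). Toward cDC2 in MI stood Cep170b (3.49, adjusted p = 0.00243), Trp53i11 (2.94), Ggt5 (2.92, adjusted p = 0.00474), Enpp1 (2.74, adjusted p = 0.00434), Tbc1d16 (2.45, adjusted p = 0.0420), Alox5 (1.71), Gpr183 (1.36), H2-Ob (1.23) and Cd86 (1.19). Toward moDCs stood C4b (-3.17, adjusted p = 0.0137), Trpm2 (-2.65, adjusted p = 0.0137), Lyz1 (-2.60), Ecm1 (-2.57, adjusted p = 0.00113), Slc27a3 (-2.36, adjusted p = 0.0462), Hmox1 (-2.12), Il1rn (-2.10), Lyz2 (-1.97), Cd36 (-1.93), Lpl (-1.77), Pparg (-1.74), Cebpb (-1.62), Slc11a1 (-1.54), Colec12 (-1.61, adjusted p = 0.00664), Trf (-1.24), Tlr8 (-1.24, adjusted p = 0.0111) and Adgre1 (-1.12, adjusted p = 0.0399). Cep170b was at 1.33 ± 0.583 CPM in SS cDC2 and 14.1 ± 3.35 CPM in MI cDC2, with 8.01 ± 3.98 and 7.53 ± 2.96 CPM in moDCs. Slc27a3, a fatty acid transport protein gene, was at 93.8, 149.6, 163 and 143 CPM in SS cDC2 and 11.7 ± 6.31 CPM in MI cDC2. The calls of Tbc1d16, Slc27a3, Il1rn and Adgre1 were lost in most leave-one-out fits, that of Tlr8 without MI cDC2 replicate 2 (0.0548), that of C4b without MI cDC2 replicate 2 (0.0841) or 3 (0.0522), and that of Trpm2 without MI cDC2 replicate 1 (0.0816) or 3 (0.0879); the log2 difference of C4b was -3.76 without MI cDC2 replicate 1, and that of Trpm2 was -4.15 without MI cDC2 replicate 2.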

How the results depend on the processing

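Of 2681 recomputed values for single genes, 2516 kept their direction and side of the threshold, 141 fell short of it, 18 passed it anew and 6 changed sign. The sign changes were Ccr7 (log2 -0.061 and -0.20 without moDC and cDC2 replicate 1, and up to 0.71 without moDC replicate 4) and Fscn1 (-0.30 and -0.92 without the same libraries, -0.059 and 0.48 without moDC replicates 2 and 4, and -0.33 with a replicate block), neither of which was called in any fit. RLE, upper-quartile and unfiltered fits called 1335, 1346 and 1187 genes in MI. With only the libraries compared, MI calls rose to 2188 (1099 higher in cDC2) and SS calls were 1202 (547 and 655), with 1267 of the MI calls shared with the main 1323. DESeq2 called 233 genes for the difference between states (108 and 125). Leaving out 1 library gave 792 to 1174 calls in MI (358 to 538 higher in cDC2, 434 to 642 in moDCs), 1478 to 2265 in SS, and 58 to 225 for the difference (31 to 82 shifted toward cDC2, 27 to 143 toward moDCs). The lowest MI counts and the 58 came without MI cDC2 replicate 2 (58 as 31 and 27), and the 225 without SS moDC replicate 3. The cause of these shifts was not tested, though fewer libraries also leave fewer degrees of freedom. DESeq2 gave no adjusted p for Btla.

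With replicate number as a block, the difference was called for 189 genes (109 toward moDCs) and the MI contrast for 1531, 1266 of them shared. Whether a shared number marks paired samples is not stated in the labels, and the values did not settle it. Same-numbered libraries deviated together with correlations of -0.058, 0.055 and -0.0087 in MI and 0.047, 0.171, 0.103 and 0.069 in SS. Those of different numbers ran from -0.053 to 0.065 in MI and from -0.141 to 0.121 in SS. The same-numbered SS values were all positive, but not every library matched its own number best. The main fit used no pairing. Replicates differed by more than counting error (chi-square per degree of freedom 11.8 to 23.2), and genes under 1 CPM, such as Ly6c2, Ccl8 and Ccl12 in cDC2, rest on few reads.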

Other observations

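Short sequence motifs of myeloid transcription factors were counted in the 250 bases before the RefSeq start, on both strands, for 439 genes higher in cDC2, 555 higher in moDCs and 9947 tested genes with a promoter in the table. The C/EBP letters TTGCNNAA were present in 15.0% of the moDC set, 9.79% of the cDC2 set and 9.28% of tested genes (9.56% of all promoters). The PU.1 letters GAGGAAGT were present in 5.05%, 5.92% and 3.22% (2.44%), the Ets-IRF composite in 3.78%, 4.56% and 2.49% (2.30%), and the Maf motif TGCTGAC in 4.14%, 4.56% and 3.84% (3.81%). The PU.1 and composite motifs share the letters GGAA. The shares of gene sets count a gene if any of its listed starts had a match. Those in parentheses count single promoters, so they are not the same measure. These shares are descriptions without a test, and a match is not a site.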
